A study of Drosophila melanogaster with 3 samples.

Results

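Binding summits of CG9727 that lay between genes and away from every annotated gene start are described here. They were taken from the authors' thresholded list of 7896 peaks, made by irreproducible discovery rate (IDR), a test of how well peak ranks repeat between replicates. A peak's summit, the base of its highest signal, was kept when it lay more than 2000 bp from every transcription start site (TSS) in the Ensembl annotation and inside no gene body, with transposable elements ignored. The rule used positions only, and 846 of the 7896 summits met it (10.7%, 95% Wilson interval 10.1 to 11.4). They are called intergenic distal summits. The other summits comprised 3544 promoter summits (within 500 bp of a TSS), 1745 proximal summits (within 2000 bp), 1705 intronic distal summits and 56 exonic distal summits, the last 2 groups lying over 2000 bp from a TSS but inside a gene. The embryos were of both sexes, 0 to 24 h old and whole, from a transgenic *Drosophila melanogaster* line that stably carries CG9727 joined at its C-terminus to enhanced GFP, and the fusion protein was pulled down with an antibody against GFP after sonication. There was 1 group of 3 biological replicates and no second genotype, treatment or stage. The labels give each replicate its own biosample record and 1 shared donor record, and do not say whether the collections were separate, so their spread may be partly technical. They also do not say what drives the fusion or whether the native gene remained, and a whole embryo is a mixture of all its tissues.

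In a compact genome such as that of the fly, many transcription factors bind mostly at or near promoters. Binding far from a gene start often falls in enhancers, short stretches of DNA that switch genes on in particular cells, or in insulators, which limit the contacts an enhancer can make. Genes that pattern the embryo, such as segmentation genes and neural selector genes, often have much of their control DNA outside the gene body. The rule on distance does not tell these kinds of element apart, and a summit's nearest gene is not shown to be its target.

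The DNA under some of the strongest summits was rich in A and T, and under others it was not. The 101 bases centred on the summit are given below for strong intergenic distal summits of the arms 2L and 3L, to show both kinds. A strong summit of 3R, between CG43131 and RabGGTa, is printed further down. Each is read from the plus strand of dm6 in the RefSeq copy of that assembly, with capitals for every unbroken stretch of 6 or more A or T. The summit between COX7AL2 and CG31668 lies at chr2L:2202354-2202454, the one between lncRNA:CR44603 and lncRNA:CR45695 at chr2L:1638723-1638823, the one beside CG43245 at chr3L:10769795-10769895, the one between lncRNA:CR45411 and lncRNA:CR43785 at chr3L:724593-724693, and the one between slp1 and slp2 at chr2L:3832469-3832569.
COX7AL2 to CG31668: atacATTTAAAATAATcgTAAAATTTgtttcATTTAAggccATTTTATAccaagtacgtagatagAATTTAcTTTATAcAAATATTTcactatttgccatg
lncRNA:CR44603 to lncRNA:CR45695: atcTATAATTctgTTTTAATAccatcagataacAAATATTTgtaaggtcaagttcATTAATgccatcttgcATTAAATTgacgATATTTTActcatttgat
NijA to CG43245: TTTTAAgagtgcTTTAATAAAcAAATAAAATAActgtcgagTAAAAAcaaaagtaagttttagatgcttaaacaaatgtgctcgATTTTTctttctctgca
lncRNA:CR45411 to lncRNA:CR43785: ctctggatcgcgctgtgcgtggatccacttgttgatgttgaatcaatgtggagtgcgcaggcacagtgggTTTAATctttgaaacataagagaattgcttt
slp1 to slp2: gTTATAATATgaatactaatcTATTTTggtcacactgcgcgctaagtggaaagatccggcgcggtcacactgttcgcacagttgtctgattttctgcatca
The first 3 windows hold 54, 45 and 38 bases in such stretches, with a GC content of 23.8%, 25.7% and 26.7%. The window between lncRNA:CR45411 and lncRNA:CR43785 has 1 stretch of 6 bases and a GC content of 45.5%, and the slp1 to slp2 window has 15 such bases and a GC content of 43.6%.

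A small set of windows is shown for another reason, a match to the core word of Su(Hw), the zinc-finger protein of the gypsy insulator. The word GCATACTT, searched on both strands, is in capitals, and of the 12 intergenic distal summits that hold it 3 are printed, all recovered in all 3 replicates and ranked 116, 916 and 2552. They lie at chr3R:5113222-5113322 (CG43131 to RabGGTa), chr3L:11256638-11256738 (scyl to lncRNA:CR44720) and chr3L:4475084-4475184 (CG11349 to CG7465).
CG43131 to RabGGTa: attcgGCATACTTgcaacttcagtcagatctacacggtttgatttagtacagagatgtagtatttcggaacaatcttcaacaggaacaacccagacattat
scyl to lncRNA:CR44720: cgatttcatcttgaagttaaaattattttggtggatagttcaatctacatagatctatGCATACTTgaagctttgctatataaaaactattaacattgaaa
CG11349 to CG7465: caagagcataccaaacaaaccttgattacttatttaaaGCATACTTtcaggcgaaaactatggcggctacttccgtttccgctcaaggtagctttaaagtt
The CG43131 to RabGGTa window is the only one of the 3 that is also among the 10 strongest intergenic distal summits, and it holds no A/T stretch of 6 bases.

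Each of the 20 strongest intergenic distal summits was recovered in all 3 replicates. This is common among strong summits, as 98.1% of intronic distal and 97.6% of promoter summits in the strongest decile of the list were too. Ranks are given by the authors' signal value, with rank 1 the strongest of 7896, and a replicate's rank is that of its own peak within 100 bp of the summit. The first of them lay between CG13321 and Psc, which encodes a subunit of Polycomb repressive complex 1, on 2R, 4671 bp from the nearest TSS. It ranked 28 in the thresholded list and 22, 39 and 27 in replicates 1, 2 and 3. Another summit in the same gap of 10284 bp ranked 49 in the thresholded list and 38, 63 and 64 in the replicates. A summit in the gap of 36783 bp between Su(z)2, the neighbouring paralog of Psc, and CG13323 ranked 46 in the thresholded list and 45, 41 and 56 in the replicates. So 3 of the 4 strongest intergenic distal summits flanked this pair of Polycomb-group genes.

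The others near the top stood beside genes of many kinds. The gap between COX7AL2, which by its name encodes a cytochrome c oxidase subunit, and CG31668 held the summit ranked 41 (25, 55 and 45 in the replicates). The gap of only 1340 bp between the converging ends of blw, which encodes a subunit of mitochondrial ATP synthase, and CycB, the mitotic cyclin B gene, held the summit ranked 56 (53, 47 and 76). In the gap between lncRNA:CR44603 and lncRNA:CR45695, where the next coding gene on the right is chinmo, a BTB zinc-finger gene that times neuronal fate, the best summit ranked 58 (93, 37 and 46) and the next 263 (396, 253 and 200). Both summits between the forkhead pair-rule genes slp1 and slp2 ranked high, 144 (82, 206 and 193) and 179 (126, 225 and 229). The summit between CG43131 and RabGGTa, the gene of a Rab prenyltransferase subunit, ranked 116 (86, 175 and 118). Further down, a summit between CG13334 and CG42807 ranked 181, one between CheA75a and CG5103 ranked 232, and one between Asator and the zinc-finger homeodomain gene zfh2 on chromosome 4 ranked 296 in the thresholded list, and 113, 558 and 451 in the replicates. A summit 24761 bp from the nearest TSS, in the gap on the side of the pro-apoptotic gene rpr, ranked 298. One on the side of noc, a zinc-finger gene, ranked 332, and one between lncRNA:CR44761 and Ppa, an F-box gene, ranked 384.

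Intergenic distal summits were fewer than the space open to them. The bases that satisfy the rule, here the open space, covered 28.9 Mb, which was 21.6% of the 134 Mb of known sequence on the 6 main arms, against 10.7% of the summits. When each replicate's own 7896 strongest peaks were sorted in the same way, 811, 846 and 825 of them were intergenic and distal (10.5% ± 0.223, SD, n = 3). The share was 6.71% in the strongest decile of the thresholded list (53 summits) and 12.8% in the weakest decile (101 summits). Among the 22104 peaks of the pooled relaxed list that did not reach the thresholded list, 3151 (14.3%) were intergenic and distal. The highest share of any decile was 14.2%, in the eighth, and the lowest was that of the strongest.

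The median signal of intergenic distal summits was 256 in the thresholded list, against 263 for intronic distal and 302 for promoter summits. Signal has no stated unit and can be compared only inside a list. In replicates 1, 2 and 3 the intergenic medians were 104, 60.2 and 104, against 101, 61.4 and 106 for intronic distal summits. The log2 ratio averaged −0.01 (SD 0.04, n = 3; exact sign-flip permutation test, two-sided p = 1.0), with the intergenic median lower in 2 of 3 replicates. Against promoter summits, with medians of 112, 76.0 and 123, the log2 ratio averaged −0.23 (SD 0.12, n = 3; exact sign-flip p = 0.25) and was below 0 in 3 of 3 replicates. With 3 replicates this test cannot give a p below 0.25.

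Replicate support was counted as a summit within 100 bp among a replicate's 7896 strongest peaks. The thresholded list was made from these same 3 replicates, so part of the recovery is built in. Of the 846 intergenic distal summits, 527 (62.3%, 95% Wilson interval 59.0 to 65.5) were recovered in all 3 replicates, against 62.5% of all summits in the list. A further 201 were recovered in 2 replicates, 108 in 1 and 10 in none. By replicate, 82.9%, 80.02% and 84.3% of intergenic distal summits were recovered, against 82.9%, 81.1% and 85.0% of intronic distal summits. The difference was −0.623 ± 0.496 percentage points (SD, n = 3; exact sign-flip permutation test, two-sided p = 0.25), below 0 in 3 of 3 replicates. The difference from promoter summits was −0.438 ± 2.02 percentage points (SD, n = 3; exact sign-flip p = 1.0), with replicate 2 above 0 and the other replicates below. For intergenic distal summits with a peak in both replicates of a pair, anywhere in the relaxed lists, ranks correlated with Spearman's rho of 0.755 (replicates 1 and 2, n = 789), 0.802 (1 and 3, n = 795) and 0.805 (2 and 3, n = 782), as a description across summits.

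Support by this count is bound to fall with rank, because summits near the end of the thresholded list also lie near the end of a replicate's 7896 strongest peaks. In the strongest decile of the list 98.1% of intergenic distal summits, 98.1% of intronic distal summits and 97.6% of promoter summits were recovered in all 3 replicates. In the seventh decile the shares were 65.1% for intergenic distal, 66.0% for intronic distal and 42.7% for promoter summits, and in the weakest decile 0.990% for intergenic distal and 1.52% for intronic distal summits. When a peak within 100 bp anywhere in the relaxed lists was counted, 766 of the 846 intergenic distal summits had one in all 3 replicates, which were 98.1% of the strongest and 84.2% of the weakest decile. Support among the 7896 strongest was lower for closely spaced summits. The smallest spacing between summits in the list was 199 bp, and 110 of the 846 intergenic distal summits had another summit within 250 bp, against 278 of 1705 intronic distal and 1016 of 3544 promoter summits. Of those 110, 46.4% were recovered in all 3 replicates, against 64.7% of the more isolated intergenic distal summits. How far closely spaced calls account for lost support was not tested.

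**Figure D1:**
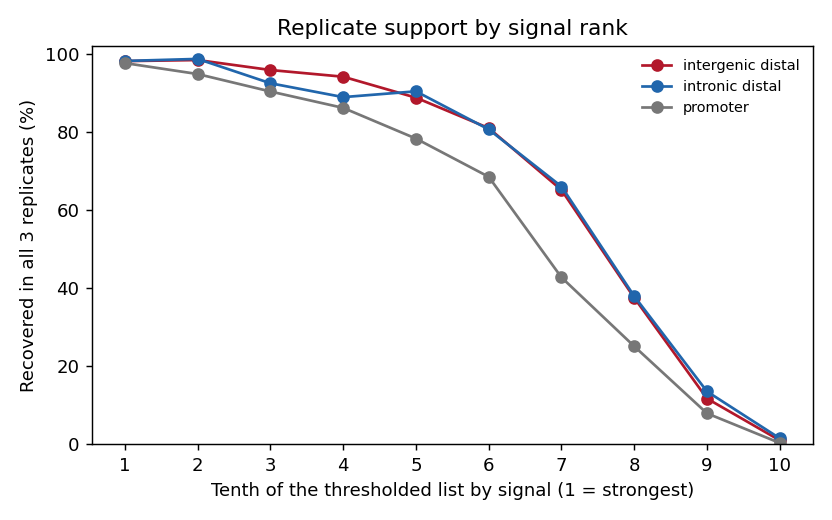
Share of summits recovered in all 3 replicates (vertical axis, %) in each decile of the thresholded list by signal (horizontal axis, 1 is the strongest), for intergenic distal, intronic distal and promoter summits. Intergenic distal summits stayed above 80% through the sixth decile and reached 0.990% in the last, close to the intronic distal line, while promoter summits were at 42.7% in the seventh decile.

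Flanking genes were read from the gap, the stretch between 2 neighbouring gene bodies that holds the summit. Gaps were divergent where both genes are transcribed away from the gap, convergent where both are transcribed into it, and tandem where both run the same way. Of the 846 intergenic distal summits, 188 (22.2%) were in divergent gaps, 432 (51.1%) in tandem gaps and 226 (26.7%) in convergent gaps. In the replicates the shares were 21.9% ± 0.584, 51.5% ± 0.917 and 26.6% ± 0.835 (SD, n = 3). Of the open space, 17.9% was in divergent, 49.4% in tandem and 28.2% in convergent gaps, with the remaining 4.62% at arm ends, where no summit lay. Per Mb of open space there were 36.5 summits in divergent, 30.3 in tandem and 27.8 in convergent gaps. Median signal was 254 in divergent, 253 in tandem and 266 in convergent gaps, and 62.8%, 62.0% and 62.4% of the summits of these gaps were recovered in all 3 replicates. The nearest TSS was a median of 5272 bp away, and 458 summits (54.1%) lay upstream of it, against 55.4% of the open space. At least 1 flanking gene was non-coding for 479 summits (56.6%), against 53.1% of the open space.

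Summits lay closer to gene starts than the open space did. Only 190 intergenic distal summits (22.5%) lay over 10 kb from a TSS, against 44.1% of open bases. The farthest was 37704 bp away, between bab1 and bab2, paired BTB genes of limb and abdomen patterning, and ranked 3296. The gaps that held summits had a median length of 16996 bp by summit, with quartiles of 10003 and 26875 bp and a range of 422 to 245765 bp. The replicates' medians were 17344, 16618 and 16594 bp. A base of open space lay in a gap of 26876 bp at the median, and the 3151 weaker pooled peaks in gaps of 17349 bp. Gaps over 80 kb held 23.6% of the open space but 0.591% of the summits. They weigh on the open-space values of distance, gap length, orientation, flanking genes and gene lists, which were not recomputed without them.

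The density of intergenic distal summits was 61.7 per Mb in gaps of up to 5 kb, 40.5 in gaps of 5 to 10 kb, 45.4 in gaps of 10 to 20 kb, 32.7 in gaps of 20 to 40 kb and 25.8 in gaps of 40 to 80 kb. Gaps over 80 kb, 40 in number, held 5 summits in 6.81 Mb, or 0.734 per Mb (0.685 ± 0.0847 in the replicates, SD, n = 3). The replicates' values were 0.734, 0.734 and 0.587 per Mb. In these longest gaps 45.2% of the open bases were soft-masked, the mark of repeats in the assembly, against 19.8% in gaps of up to 5 kb. Whether reads map as well there as elsewhere was not tested. Of the 5 summits, 4 were between AOX4, an aldehyde oxidase gene, and CG43335 on 3R, ranked 4467, 4500, 6573 and 6736, and 1 was between Pld, the phospholipase D gene, and lncRNA:CR46075 on 2R, ranked 6339.

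**Figure D2:**
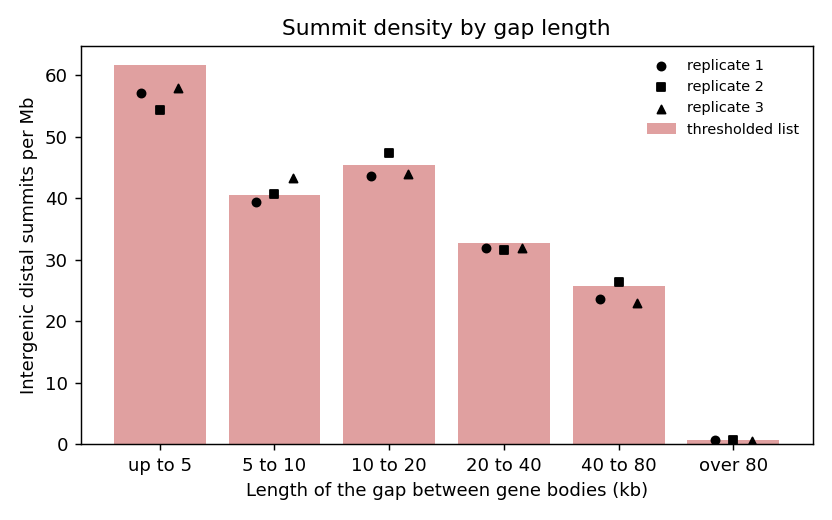
Intergenic distal summits per Mb of open space (vertical axis) by length of the gap between gene bodies (horizontal axis, kb). Bars are the thresholded list and points the 3 replicates. Density was 61.7 per Mb in the shortest gaps and 0.734 per Mb in gaps over 80 kb.

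The arms differed in density. On 3L there were 302 intergenic distal summits, 35.7% of the total, against 25.6% of the open space, 20.8% of intronic distal summits and 20.3% of promoter summits. Per Mb this was 40.9 on 3L, 33.9 on 2L, 28.0 on 3R, 22.2 on X, 17.9 on 2R and 17.0 on 4, where only 3 summits lay. The replicates gave 40.7, 41.4 and 39.3 per Mb on 3L and 32.6, 33.9 and 36.1 on 2L, so the values of these 2 arms did not overlap. On 3R they were 27.5, 28.5 and 26.4, on X 19.6, 19.6 and 20.5, and on 2R 15.8, 18.4 and 17.3. The lead of 3L over 2L was smaller outside repeats. With soft-masked bases and summits left out, the thresholded list had 40.1 summits per Mb on 3L, 37.2 on 2L and 30.6 on 3R. With gaps over 80 kb left out, there were 38.0 summits per Mb on 2L, 33.6 on 3R, 28.6 on X, 26.4 on 2R and 17.0 on 4. The value was 58.4 on 3L, against 31.9 on all other arms together. Both the occupied gaps and the summits per gap were more numerous there. On 3L, 19.9% of gaps with open space held a summit, against 12.9% elsewhere, and an occupied gap held 2.42 summits on average, against 1.68 elsewhere. Counted by occupied gap, 3L had 27.9% of the total, against 629 of the 3142 gaps with open space.

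**Figure D3:**
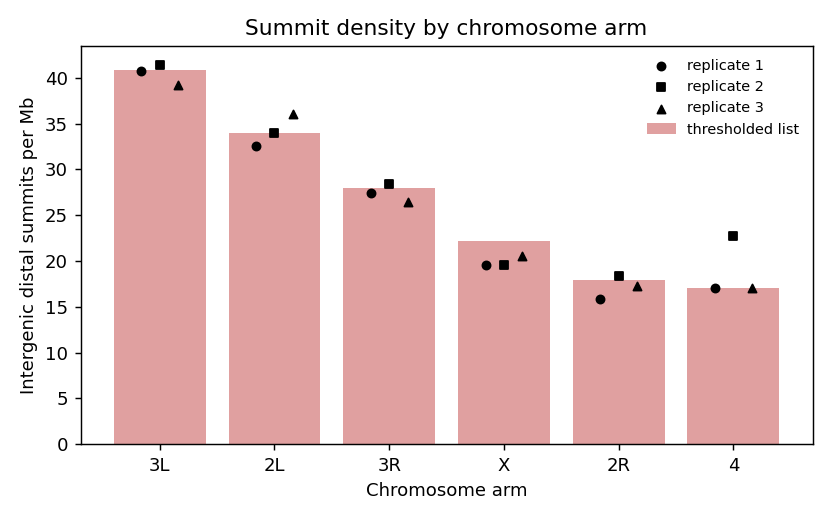
Intergenic distal summits per Mb of open space (vertical axis) on each chromosome arm (horizontal axis). Bars are the thresholded list and points the 3 replicates. All 3 replicate values on 3L, from 39.3 to 41.4, were above those of every other arm.

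Summits shared gaps. The 846 intergenic distal summits fell into 448 gaps, 14.3% of the 3142 gaps with open space. There were 270 gaps with 1 summit, and 178 gaps with 2 or more held 576 summits (68.1%). The 31 gaps with 5 or more held 188. Summits of a gap share their flanking genes and are not independent.

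The gap with most summits was that of 75047 bp between NijA, a ninjurin gene, and CG43245 on 3L, with 13. All lay on the CG43245 side, between 2080 and 36603 bp from its TSS. The strongest, ranked 82 (48, 159 and 84 in the replicates), was the nearest to CG43245, and others ranked 211 and 391. Of the 13, 8 were recovered in all 3 replicates, and the replicates' own lists held 13, 14 and 14 there. The gap of 26991 bp between CG7320 and lncRNA:CR45935, next to the chemosensory protein gene CheA75a, held 9, with the best ranked 1325. The gap of 70507 bp beyond the 3' end of vvl, a POU-domain factor of tracheal and neural development, also held 9, with the best, ranked 951 (917, 851 and 1117), 33823 bp from the nearest TSS. The gap between lncRNA:CR46197 and CG6244, whose nearest coding gene on the left is comm, a regulator of midline crossing by axons, held 8, and so did the gap between Sox21b and D, neighbouring SoxB genes, on the D side of lncRNA:CR45887. In the D gap 3 of 8 were recovered in all 3 replicates and the best ranked 2945. All 5 of these gaps were on 3L.

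Among the longest gaps with a summit, the one of 73549 bp next to rpr held 5 summits. In the gap between lncRNA:CR44363 and CG7560 on 3L, which was 19063 bp long, all 7 summits were recovered in all 3 replicates. Per 100 kb of the gap's open space this was 44.8 summits, against 18.3 in the NijA to CG43245 gap.

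**Figure D4:**
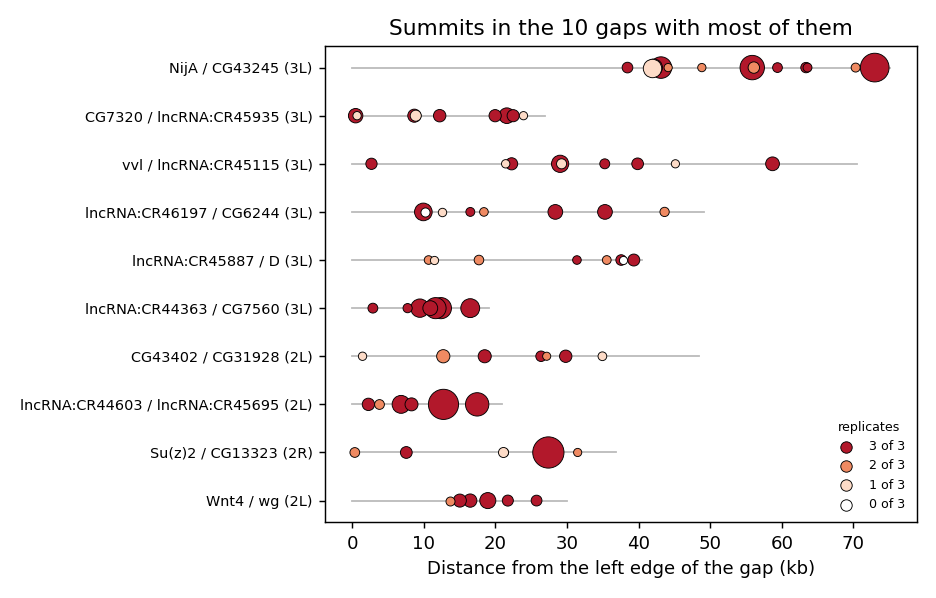
Position of each summit in the 10 gaps with most summits, as distance from the left edge of the gap (horizontal axis, kb), with 1 line per gap named by its flanking genes and arm. Point area is proportional to signal and colour gives the number of replicates with the summit. In the NijA to CG43245 gap the 13 summits lie in the right part, with the strongest nearest CG43245.

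Segmentation and neurogenesis genes stood beside a larger share of the summits than of the open space. A summit counted for a list of genes when a member of the list was 1 of its flanking genes or, with non-coding genes set aside, 1 of its flanking coding genes. These are counts with no test, the replicates give their spread, and the lists share some genes, such as wg, hh, dpp, vn and tup. The open space includes the gaps over 80 kb, which held few of the summits. For segmentation genes (gap, pair-rule and segment polarity genes) the count was 47 summits, 5.56% of the total (5.65% ± 0.686 in the replicates, SD, n = 3), against 2.11% of the open space and 4.73% of the weaker pooled peaks. Of 27 listed genes beside open space, 16 had a summit. The matching share over all genes beside open space is not given here, for this list or the others. The head gap gene oc had 7, the best ranked 1021. The gap gene kni, a nuclear receptor, and wg, the Wnt ligand of segment polarity, had 6 each, the best ranked 2436 and 1220. The hedgehog receptor gene ptc had 4, the best ranked 915 (705, 1154 and 998).

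For neurogenesis genes there were 51 summits, 6.03% (5.31% ± 0.321, SD, n = 3), against 1.81% of the open space and 3.33% of the weaker pooled peaks. They stood beside 12 of 23 listed genes with open space. Of these, vvl had 11 and D had 8. The paired-box gene eyg had 4, the best ranked 583 (499, 743 and 636), the SoxB gene SoxN had 5, the best ranked 672 (390, 1034 and 1035), and the LIM-homeodomain gene tup had 3, the best ranked 702. Counted by gap rather than by summit, segmentation genes stood beside 4.69% of occupied gaps and neurogenesis genes beside 4.02%. The shares of all gaps with open space beside these genes are not given here.

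Smaller lists had fewer summits, and for 3 of them the weaker pooled peaks gave a similar or larger share. Dorsoventral patterning genes had 12 summits (1.42%, against 0.472% of the open space and 1.40% of the weaker pooled peaks), among them those of the T-box genes Doc2 (best rank 510) and Doc1 (661). The list of mesoderm and muscle factors had 18 (2.13%, against 0.970% and 2.16%). The best ranks in it were those of zfh2 (296) and the T-box gene mid with 8 (1064), and zfh1 had 4 (best rank 2880). That zfh2 belongs with mesoderm factors was not checked. Secreted ligands had 16 (1.89%, against 0.873% and 2.19%), with vn, an EGF-like ligand, at rank 1178 and the FGF genes pyr and ths, which share a gap, at 1194. Hormone response and broad regulators had 11 (1.30%, against 0.521% and 1.05%), of which 6 stood beside chinmo. The tRNA genes had 26 (3.07%, against 1.31% and 2.13%), the best ranked 434 beside tRNA:Ser-GCT-2-2.

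The remaining lists were near or below their share of the open space, apart from cuticle genes, where only 6 summits were counted. Cell adhesion and axon guidance genes had 13 summits, 1.54% (1.61% ± 0.245 in the replicates, SD, n = 3), against 4.07% of the open space and 3.55% of the weaker pooled peaks. Among them the axon guidance receptor gene robo2 had 2, the best ranked 953. Chemosensory receptor and odorant-binding genes had 26 (3.07%, against 3.55% and 3.74%), with Gr93d, a gustatory receptor gene, at rank 623. Cuticle genes had 6 (0.709%, and 0.568% ± 0.287 in the replicates, SD, n = 3), against 0.522% of the open space and 1.05% of the weaker pooled peaks. Only 1 of these 6 was recovered in all 3 replicates. Of the 8 homeotic genes of the Antennapedia and bithorax complexes, only abd-A had a summit, ranked 2075 (1707, 2754 and 2237), or 0.118% of the total, against 0.357% of the open space. The replicates gave 0.370%, 0.118% and 0.364%, so they did not set this list apart from its space.

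GC content was lower at the summits than beside them across most of the class. The 101 bp windows at intergenic distal summits had a mean GC of 31.8%, against 42.9% in windows of the same length 500 bp to either side, and 701 of 846 summits (82.9%) were below their own flanks. In the replicates' lists the means were 32.7% ± 0.158 at summits and 42.8% ± 0.145 in flanks, a difference of −10.1 ± 0.297 percentage points (SD, n = 3; exact sign-flip permutation test, two-sided p = 0.25, lower in 3 of 3). The same difference was −8.40 ± 0.542 points for intronic distal and −9.37 ± 0.289 points for promoter summits. For the weaker pooled intergenic distal peaks it was −3.14 points. Windows tiled over the whole open space averaged 41.0%. Stretches of 6 or more A or T filled 28.0 bases of the summit window on average, against 15.1 bases of the flanks. The dip had shoulders. GC was highest at +260 bp, with 47.7% for intergenic distal and 44.9% for intronic distal summits. At −260 bp it was 45.8% and 44.4%. It was 40.3% and 40.6% at the edges of the profile.

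**Figure D5:**
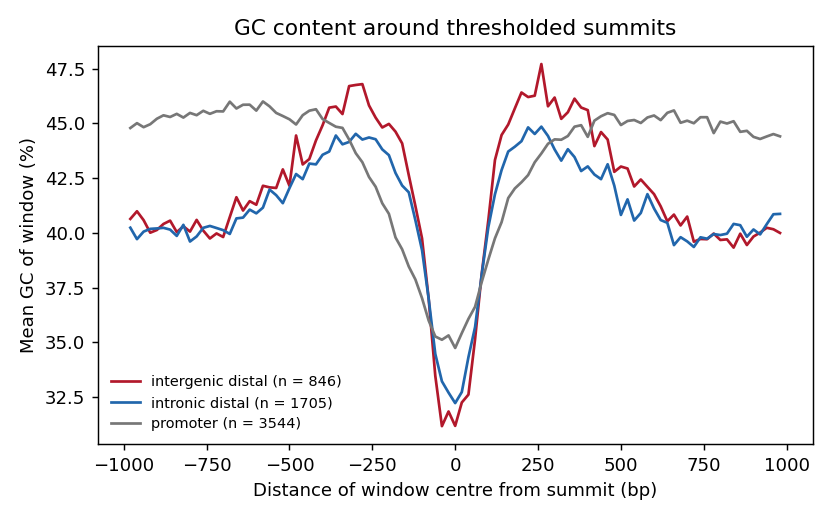
Mean GC content (vertical axis, %) of windows centred at a given distance from the summit (horizontal axis, bp) for intergenic distal, intronic distal and promoter summits of the thresholded list. Intergenic distal summits had the deepest trough, 31.2%, with shoulders that reached 47.7%, and promoter summits had a wider trough with a minimum of 34.7%.

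Short words known as binding sites were searched on both strands in the summit windows and their flanks, 22 words in all. A match describes the letters and is not shown to be a bound site. In all 3 replicates 9 words were more frequent at the summit than in its flanks and 6 were less frequent. The remaining 7 were neither in all 3 replicates. The exact sign-flip permutation p was 0.25 at best for each, so no word could pass a threshold. The TATA word TATAAA was in 25.4% of summit windows, against 11.2% of flanks and 12.2% of tiled windows. The Mef2 word TATTTNTA was in 12.4%, against 6.38% of flanks and 6.29% of tiled windows. The GATA-factor word AGATAA was in 8.87%, against 4.43% of flanks and 5.72% of tiled windows, and the homeodomain word TAATTA in 9.10%, against 6.50% and 7.17%. With flanks at 1000 bp the mean difference over the replicates was 2.19 percentage points for the GATA word, against 4.18 with flanks at 500 bp, and 0.146 for the homeodomain word, against 1.76. The Twist E-box CATATG was in 4.26%, against 3.55% and 2.78%, the AP-1 word TGANTCA in 2.25%, against 1.83% and 1.71%, and a run of 8 A in 7.45%, against 5.73% and 5.31%. Nearly all letters of these words are A or T apart from the AP-1 and Twist words. The part of the low GC in these shares was not tested. The TATA, Mef2, GATA and homeodomain words were also above their flanks in 3 of 3 replicates at intronic distal and promoter summits. In intronic distal and promoter windows, the TATA word was in 23.7% and 21.5%, and the Mef2 word in 12.8% and 12.98%. The shares were 9.68% and 7.22% for the GATA word, and 9.21% and 9.71% for the homeodomain word.

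The 6 words that were less frequent at summits in all 3 replicates each hold more G and C than A and T, or as many. The Pho word GCCAT, a site of the recruiter of Polycomb complexes, was in 12.4% of summit windows, against 20.4% of flanks and 19.7% of tiled windows. The GC box GGGCGG was in 1.06%, against 4.43% and 3.04%, the Su(H) word TGGGAA in 4.61%, against 6.97% and 6.03%, and the E2F word TTCCCGC in 0.236%, against 0.946% and 0.872%. The repeat CACACACA was in 1 summit window (0.118%), against 3.19% and 2.00%. The lists of replicates 1, 2 and 3 had higher summit shares, 0.863%, 0.946% and 0.485% for CACACACA and 0.370%, 0.473% and 0.485% for the E2F word. The Grainyhead word ACCGGTT was in 0 of 846, which has an upper 95% Wilson limit of 0.452%, against 0.236% and 0.299%. All 6 words were also below their flanks in 3 of 3 replicates at intronic distal and promoter summits. In intronic distal and promoter windows, the Pho word was in 13.7% and 12.95%, and the GC box in 1.35% and 1.69%.

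The Su(Hw) word GCATACTT was in 12 summit windows, 1.42% (95% Wilson interval 0.813 to 2.46), against 0.118% of flanks and 0.464% of tiled windows. It was in 0.469% of intronic distal and 0.423% of promoter windows. In the replicates the share was 1.36%, 1.54% and 1.09%, and the difference from intronic distal summits was 0.661 ± 0.263 percentage points (SD, n = 3; exact sign-flip p = 0.25, higher in 3 of 3). Of the 12 summits, 8 were recovered in all 3 replicates, and their ranks ran from 116 to 7567 with a median signal of 396. On the dm6 plus strand 11 of the 12 read the word forward, against 6 of 8 for intronic distal windows, where 1 window held both forms, and 8 of 15 for promoter windows. In the replicates' lists it was forward in 9 of 11, 11 of 13 and 7 of 9 intergenic distal windows. For intronic distal windows it was 5 of 8, 7 of 14 and 6 of 12. These counts are small, and the strand was not tested.

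Promoter words were scarce. The DRE word TATCGATA, which Dref binds, was in 3 intergenic distal windows (0.355%), against 3.70% of promoter windows and 0.211% of tiled windows. The Motif 1 word GGTCACAC, bound by M1BP, was in 1 (0.118%), against 2.20% of promoter windows, 0.129% of tiled windows and none of the flanks. The word CGATA, bound by BEAF-32 and contained in the DRE word, was in 8.75%, against 20.1% of promoter windows and 10.6% of tiled windows. Intergenic distal summits were lower than promoter summits for these 3 words in 3 of 3 replicates, by 3.39, 2.08 and 10.9 percentage points on average (exact sign-flip p = 0.25 for each). The CTCF word AGGTGGCG was in 0.591% of intergenic distal windows, against 0.480% of promoter windows and 0.177% of flanks, and neither difference was of 1 sign in the replicates. The Zelda word CAGGTAG was in 0.355% and the GAGA word GAGAGAG in 1.18%, against 0.650% and 1.54% of flanks. The Tinman word CAAGTG was in 6.74%, against 7.09%, and the Stat92E word TTCNNNGAA in 2.36%, against 2.48%. The GAGA difference was 0 in replicate 1 and below 0 in the other replicates. The Zelda, Tinman and Stat92E differences were mixed in sign.

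Summits next to the 2000 bp limit differed little from each other in distance and much in strength. Just inside lay a summit between lmd and CG13833, 2007 bp from a TSS and ranked 4902, and one between Cngl and Scamp at 2009 bp, ranked 7818. Just outside lay one between RunxA and asRNA:CR45466 at 1995 bp, ranked 1104, and one between CG1208 and CG1213 at 1999 bp, ranked 7668.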

How the data were processed

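ChIP-seq was measured in 3 replicates of 1 group. Per the file descriptions, the authors called relaxed peaks on each replicate and on the pooled alignments, each against 1 control, and thresholded them by IDR. For the aligner, peak caller and threshold, names and versions were not given in the sources used here. The deposited columns used were the authors' signal value, their −log10 q value and the summit position. Signal ranked peaks within a list only. The relaxed lists hold 30000 peaks each, and the thresholded list equals the 7896 strongest pooled peaks. Depth is unknown from these lists, and Wilson intervals cover counting error only.

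Summits were classed with Ensembl release 115 gene models (18164 genes, 23998 TSSs) on dm6, and sequence came from the RefSeq copy of dm6. Replicates' own 7896 strongest peaks gave the mean ± SD, and differences were tested by an exact two-sided sign-flip over the 3 replicates. Named genes flank the 20 strongest summits, the 5 fullest and 5 longest gaps, and up to 4 genes per list. The Su(Hw) windows, the CG7560 gap and the arms were picked after their values were seen. Members and gene lists were chosen with earlier results of these data known. Alternatives varied the TSS distance, annotation, list length, match and window. Code was tested on simulated data. Python 3.11.15, pandas 2.3.3, numpy 2.4.6 and scipy 1.17.1 were used. The sequence of 1 window with the Su(Hw) word is not reported here.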

Additional observations from a re-analysis of the deposited data

How the results depend on the processing

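No paired analysis was possible because the 3 replicates form 1 group. The share of intergenic distal summits (10.7%) was 13.7% with a TSS limit of 1000 bp, 5.61% with 5000 bp, 14.8% with protein-coding genes only, 9.35% in the strongest 50% of peaks and 11.3% with 1 summit kept per 250 bp. It was 10.3% and 10.4% in replicates 1 and 3 alone, and 10.5% to 10.7% with a replicate left out. The divergent share (22.2%) was 23.4%, 18.5%, 27.5% and 21.4% under the first 4 of these settings, 21.3% in replicate 2 alone and 21.6% to 22.6% with a replicate left out. The median gap was 13922 bp with a limit of 1000 bp, 23130 bp with 5000 bp and 25496 bp with coding genes only. The RefSeq annotation and the pooled list's strongest peaks gave the same summits.

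The log2 signal ratio to intronic distal summits was 0.0388 with a limit of 5000 bp, and −0.0310 to 0.00530 with a replicate left out (above 0 without replicate 2 and without replicate 3), so it had no stable sign. The recovery difference from intronic distal summits was 0.111 percentage points with a limit of 5000 bp, 0.923 among the strongest 50% of peaks and 0.0897 with whole relaxed lists, and −0.899 to −0.419 with a replicate left out. Of 22 words, 6 to 11 were higher and 6 to 9 lower at summits in every replicate under the settings tried. The Motif 1 difference was −0.0425 points with a limit of 5000 bp and the AP-1 difference −0.0768 points with flanks at 1000 bp. The homeodomain difference (1.76 points) was 0.146 points with flanks at 1000 bp and 0.802 with a limit of 5000 bp, and the GATA difference (4.18) was 2.19 with flanks at 1000 bp. The Twist difference (0.828) was 0.409 with a limit of 5000 bp, the CACACACA difference (−2.88) was −1.53 with flanks at 1000 bp and the Su(Hw) difference (1.09) was 0.615 with a limit of 5000 bp.

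Chosen after the data were seen, the 3L share (35.7%) was 27.9% with each gap counted once, 34.7% without the NijA to CG43245 gap, 32.9% without soft-masked summits, 37.1% in replicate 1 alone and 37.3% to 38.5% with a replicate left out. The GC difference (−11.2 points) was −9.47 points without soft-masked summits and −10.2, −9.79 and −10.4 points in replicates 1, 2 and 3 alone. The causes were not tested. Depth per replicate is unknown, which leaves weak summits without a counting error.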
